A study of Caenorhabditis elegans with 2 samples.

Results

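The Meis and PBC genes of Caenorhabditis elegans, psa-3, unc-62, ceh-20, ceh-40 and ceh-60, were examined for regions bound in a chromatin immunoprecipitation sequencing (ChIP-seq) experiment on the zinc finger protein TLP-1. They are 5 of 19973 protein-coding genes on the nuclear chromosomes, and 7 of the 11633 regions called on both replicates pooled lay at them. The genes were chosen by family, with the regions at psa-3 and unc-62 already known from these data. A region was counted at a gene when its summit lay in the gene body or within 2000 bp of an annotated transcription start site (TSS). The worms were whole L1 larvae of mixed sex from strain OP321, which carries the insertion wgIs321 with eGFP-tagged tlp-1 and the unc-119(tm4063) mutation; no group without the tag was analysed here. Both libraries were biological replicates of this 1 group, with DNA fragments of 150 to 350 bp. A region from whole animals cannot be tied to a cell type. The lists on the ce11 build held 28183 regions for replicate 1, 23975 for replicate 2, 11633 for both replicates pooled, and 328 after thresholding by irreproducible discovery rate (IDR). These 328 are exactly the top of the pooled list by signal. The depth of the libraries is unknown because the lists give no numbers of reads, and the signal of a pooled region carries no replicate error. The tlp-1 locus itself had 0 regions in each of the 4 lists.

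Meis and PBC proteins are homeodomain-family partners of the Hox proteins: they bind DNA together with a Hox protein or with each other, and sharpen the choice of target genes along the body axis. In C. elegans, unc-62 is the homothorax and Meis homologue and ceh-20 the extradenticle and Pbx homologue, and both are required for embryonic patterning and for several postembryonic lineages. The gene psa-3 encodes a Meis-related protein needed when the T blast cell of the tail divides asymmetrically, a division in which tlp-1 also acts, and is known to be activated there by the Hox protein NOB-1 with CEH-20. The remaining PBC genes are ceh-40, which overlaps in function with ceh-20 in the embryo, and ceh-60, which acts with unc-62 in the adult intestine.

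The strongest region lay in psa-3, and its sequence is shown because it holds a pair of GATA sites, the element found at most thresholded summits. A GATA site is written here NGATAN, with A or T first and A or G last, read on either strand. The stretch runs 5′ to 3′ on the plus strand of X, the strand of the gene, with the sites in capitals (WBcel235, RefSeq, chrX:15408737-15408869).
psa-3: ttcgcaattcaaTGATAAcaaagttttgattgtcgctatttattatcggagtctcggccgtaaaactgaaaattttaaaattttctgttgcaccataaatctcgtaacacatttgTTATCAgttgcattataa

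At unc-62, 30 bases around each of a pair of matches are shown, since the region lies in an annotated 5′ untranslated exon of 2 of its 18 transcripts. The first is the GATA site, which reads on the minus strand (chrV:4505519-4505548), and the next a match to the Hox-PBC element TGATNNAT (chrV:4505576-4505605), both printed on the plus strand, the strand of the gene, with the match in capitals.
unc-62, GATA: aagggtgcaggcTTATCTcgaatattaatc
unc-62, Hox-PBC: ttttttttgtcTGATTCATttctcaccttt

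Of the Meis genes, psa-3 (WBGene00009560, X 15407931 to 15419298, plus strand) carried the region of highest signal on the X chromosome. It ran from 15408659 to 15408978, with a signal of 103 in the pooled list (−log10 q 1.35). In replicate 1 the overlapping region had a signal of 41.9 and rank 33, and in replicate 2 a signal of 68.6 and rank 31. The pooled rank was 35, which is rank 10 among the 11608 nuclear pooled regions, the rest being on mitochondrial DNA; the scale of the signal differs between lists, so the ranks and not the signals are comparable. These ranks correspond to the first 0.117% of replicate 1, 0.129% of replicate 2 and 0.301% of the pooled list. The signal was 2.1 times the median of the 303 nuclear thresholded regions, 48.9, and it stood first of the 51 thresholded regions on X. No other protein-coding gene had this summit in its window. The −log10 q set the psa-3 region little apart. It was 1.29 at the thresholded unc-62 region of pooled rank 300, and 1.3 at a nob-1 region of pooled rank 350, below the threshold.

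The psa-3 summit lay inside the gene and close to its alternative starts. It was 888 bp downstream of the first TSS, in an intron of 2 of the 4 annotated transcripts, and 236 bp upstream of the TSS of a shorter transcript. The summits of the replicates were 57 bp apart, wider than the median gap of 24 bp at nuclear thresholded regions, and 17.1% of those regions had a gap at least as wide. The pair of GATA sites printed above faced each other with 97 bases between them. The upstream site was 31.5 bp from the summit of replicate 2 and 88.5 bp from that of replicate 1, while the downstream site was 14.5 bp from the summit of replicate 1 and 71.5 bp from that of replicate 2. Each replicate thus had its summit nearer to a different site, with the pooled summit between the sites and 35.5 bp from the nearer one. Among the 269 nuclear thresholded regions with a site within 50 bp, the median distance was 11.5 bp, and in 8.92% of them it was as long as at psa-3 or longer.

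**Figure D1:**
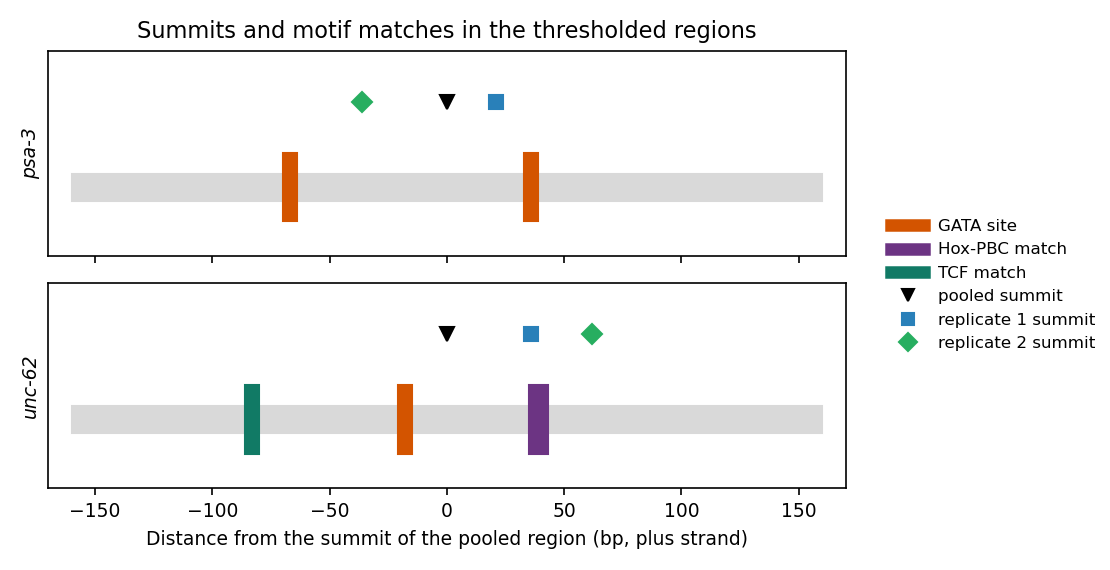
Grey bars are the thresholded regions of psa-3 (top) and unc-62 (bottom), with distance from the pooled summit in bp on the x axis, coloured blocks for motif matches and markers for the summits of the pooled list and each replicate. At psa-3 the replicate summits lie between the GATA sites, 57 bp apart, and at unc-62 both replicate summits lie on the side of the Hox-PBC match.

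The other pooled region at psa-3 was weak. It lay 1972 bp upstream of the first TSS, at 15405799 to 15406118, just inside the 2000 bp limit, with a signal of 18.1 and rank 3963. The signal of the main region was 5.65 times as high. It was overlapped in replicate 1 (rank 4414, signal 8.85) and in replicate 2 by no region. Of 5 regions at psa-3 in replicate 1 and 4 in replicate 2, the main region was the 1 that the replicates shared; the others ranked 4039 or further down.

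The region at unc-62 (WBGene00006796, V 4497461 to 4511449, plus strand) passed the threshold by a small margin. It ran from 4505392 to 4505711 on chromosome V with a signal of 39.3 and pooled rank 300, where the lowest thresholded signal was 38.2. In replicate 1 it had a signal of 15.0 and rank 485, and in replicate 2 a signal of 23.0 and rank 475. Both replicate ranks were thus past 328, which was so for 18 of the 303 nuclear thresholded regions (5.94%). It stood 58th by signal among the 63 thresholded regions on chromosome V. The summit lay 8091 bp into the gene, in an intron of 15 of the 18 annotated transcripts, and 792 bp downstream of the nearest TSS. The start of the region overlapped an exon, 4505359 to 4505516, that is coding in several transcripts, and the summit lay past that exon.

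At unc-62 the replicates put the summit away from the GATA site. The site was 18.5 bp from the pooled summit, 54.5 bp from that of replicate 1 and 80.5 bp from that of replicate 2, so that neither replicate had a GATA site within 50 bp. The Hox-PBC match was 2.5 bp from the summit of replicate 1, 23.5 bp from that of replicate 2 and 38.5 bp from the pooled summit. A match of these letters within 50 bp of the summit also occurred in 8.81% of nuclear pooled regions and 11.6% of nuclear thresholded ones. Of the 7 pooled regions at the member genes, 1 had such a match, this one at unc-62. The thresholded region of psa-3 held no such match over its whole length. A match is a description of the letters and shows no binding by a Hox or PBC protein.

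Further pooled regions at unc-62 had lower signals. One at 4509263 to 4509582, 2219 bp from the nearest TSS, had a signal of 22.8 and rank 1593; it ranked 857 in replicate 2 (signal 19.2), and in replicate 1 it was overlapped only by a region of rank 20890 (signal 5.05) whose summit lay 159 bp away. The replicates thus differed widely at this place. Another at 4500864 to 4501183, 188 bp upstream of a TSS, had a signal of 14.1 and rank 10080, with rank 21192 in replicate 2 and no overlapping region in replicate 1.

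**Figure D2:**
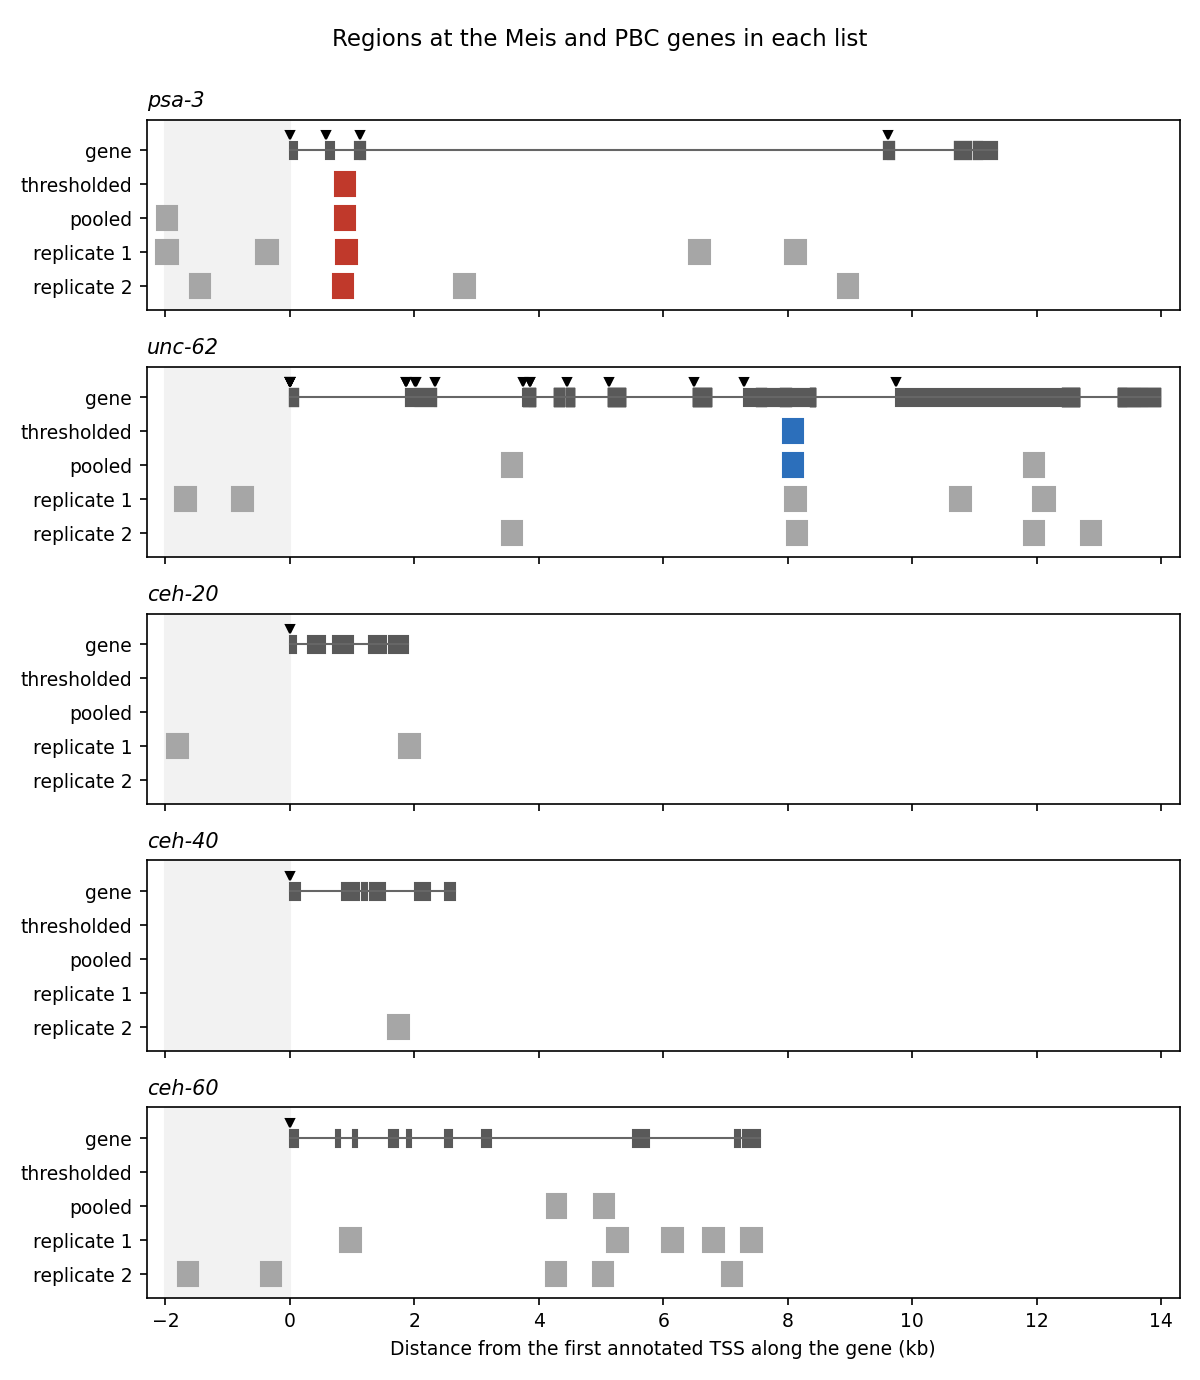
Each panel maps 1 gene, with distance from its first TSS in kb along the gene on the x axis, exons of all transcripts as dark blocks, TSSs as triangles, the 2000 bp upstream shaded, and a row of regions for each list. Coloured regions rank within the first 328 of their list: psa-3 has one in all 4 rows, unc-62 in the thresholded and pooled rows, and ceh-20, ceh-40 and ceh-60 none.

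The PBC genes had no thresholded region. At ceh-60 (WBGene00017690, X 6522596 to 6530146, minus strand), 2 intronic regions stood in the pooled list, at X 6524932 to 6525251 (rank 7978) and 6525701 to 6526020 (rank 8040), both with a signal of 15.1, below the median of 16.4 for nuclear pooled regions. Each replicate had 5 regions at ceh-60, with best ranks of 1531 in replicate 1 and 9313 in replicate 2. At ceh-20 (WBGene00000443, III 6979884 to 6981785, plus strand), the pooled list and replicate 2 had 0 regions and replicate 1 had 2, of ranks 7451 and 10837. At ceh-40 (WBGene00000461, X 12318126 to 12320777, minus strand), the pooled list and replicate 1 had 0 and replicate 2 had 1, of rank 17277. The regions at ceh-20 and ceh-40 thus stood in 1 replicate each, and 0 regions in a list of unknown depth does not show that TLP-1 is absent.

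Some regions lay just outside the windows. The nearest to ceh-20 had its summit 66 bp past the limit (signal 13.8, rank 10846) and overlapped the replicate 1 region of rank 10837, whose own summit lay inside, and the nearest to ceh-40 567 bp past it (signal 14.4, rank 9270). At ceh-60 a thresholded region lay 1707 bp beyond the annotated 3′ end, at X 6520729 to 6521048, with a signal of 42.9, pooled rank 245, and ranks 374 in replicate 1 and 471 in replicate 2. Its summit falls in the window of ets-4, an ETS-family transcription factor gene, and it was not counted at ceh-60.

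In all, the 5 genes had 2 thresholded regions and 7 pooled regions, at 2 and 3 of the genes. Of nuclear protein-coding genes, 1.71% had a thresholded region in the same window and 40.2% a pooled one; since the genes were chosen with the regions at psa-3 and unc-62 known, nothing is read from this count. By region, 2 of the 7 pooled regions were thresholded, against 2.61% of all nuclear pooled regions, with the same limit. In the lists of the replicates, 4 of the 5 genes had a region in each, 17 regions in replicate 1 and 14 in replicate 2, where 70.8% and 65.5% of genes had one. Of the 7 pooled regions, 4 were overlapped in both replicates, against 53.6% of all nuclear pooled regions, a share close to that of the members.

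Long genes have wide windows, and the member genes differed in this. The window of psa-3 spanned 13.6 kb and that of unc-62 16 kb, against a median of 4.18 kb over all genes. Per 10 kb of window, psa-3 had 1.47 pooled regions, unc-62 1.88 and ceh-60 2.09, where the nuclear chromosomes had 1.16. Among the 751 genes with a window at least as long as that of psa-3, 79.8% had a pooled region and 3.06% a thresholded one. A pooled region was therefore common for a gene of this length; nothing is read from the thresholded regions, which were known when the genes were chosen.

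**Figure D3:**
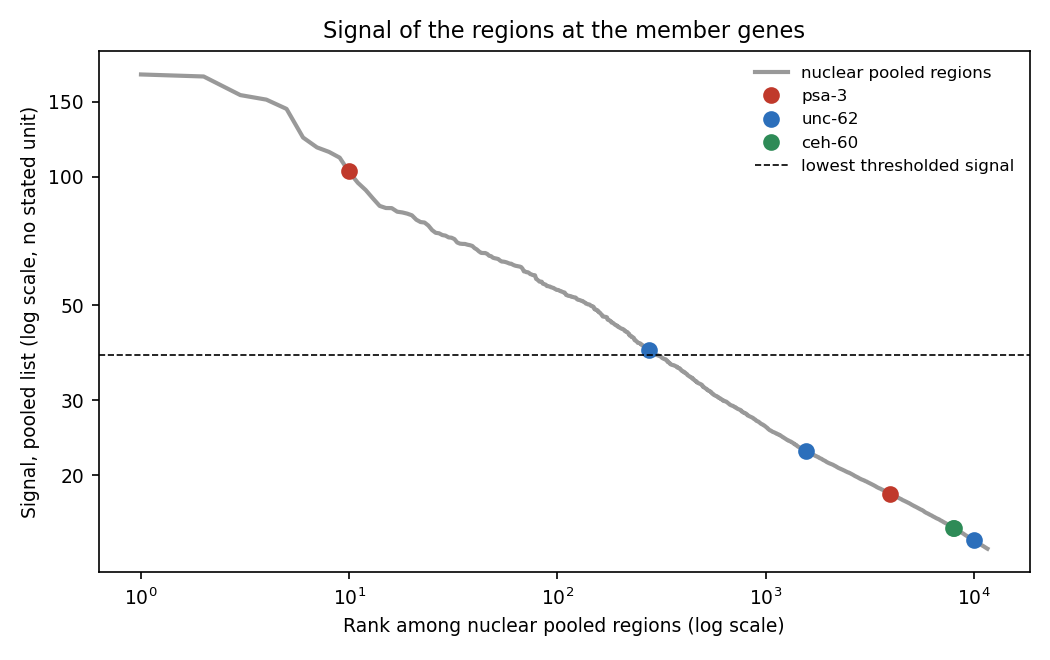
The signal of the nuclear pooled regions (y axis, log scale, no stated unit) is drawn against their rank (x axis, log scale), with the regions at psa-3, unc-62 and ceh-60 as points and the lowest thresholded signal, 38.2, as a dashed line. The psa-3 region sits at rank 10 with a signal of 103, unc-62 just above the line, and the other 5 regions between 14.1 and 22.8; both ceh-60 points overlap.

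Of the 7 pooled regions, 6 held a GATA site no more than 50 bp from the summit (85.7%), against 32.0% of nuclear pooled regions. In the replicates' own lists the share was lower: 50% of the 14 regions of replicate 2 and 41.2% of the 17 of replicate 1, against 26.9% and 25% of the nuclear regions of those lists. The 7 regions lie at 3 genes, and 2 of them were known beforehand, so they are not independent draws. Both thresholded regions had one, as did 88.8% of nuclear thresholded regions. Of the 5 regions below the threshold, 4 had one, against 30.5% of nuclear pooled regions below it; no test was run on so few regions. The exception was the ceh-60 region of rank 7978. The sites outside the thresholded regions are shown to compare their flanks, on the plus strand, with capitals for the site: psa-3 at chrX:15405938-15405967, unc-62 at chrV:4500997-4501026 and chrV:4509406-4509435, and ceh-60 at chrX:6525828-6525857.
psa-3, rank 3963: atgattcgctgcCTATCAaccgccatatac
unc-62, rank 10080: caaaaaatccgcCTATCAtcttgccgaaat
unc-62, rank 1593: tctaaaccaatcAGATAAtcatctataaca
ceh-60, rank 8040: aaattgtctttaTTATCTgggttaaattcc

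The thresholded regions of psa-3 and unc-62 held fewer GATA sites than most thresholded regions. Over the whole region, psa-3 held 2 sites and unc-62 held 1. Within a window of nearly the same length around the summit, 73.9% of nuclear thresholded regions held 3 or more sites and 89.1% held 2 or more. The longer element CTTATCA, which includes a GATA site on the other strand, was at 0 of the 7 summits, against 53.5% of nuclear thresholded regions and 8.27% of nuclear pooled ones. The Meis element TGACAG and the TCF element CTTTGA, which factors such as POP-1 bind, were also at 0 of the 7 summits. They occurred at 2.82% and 7.84% of nuclear pooled regions. Only these exact letters were searched, so other forms of either element were not counted. The psa-3 stretch printed above holds CTTTGT, which differs in its last letter, on the minus strand next to its upstream GATA site. How often CTTTGT occurs in other regions was not counted. A TCF match did lie farther out in the unc-62 thresholded region, at V 4505466 to 4505471, 83.5 bp from the pooled summit. The Hox-PBC letters can overlap a GATA site, but at unc-62 the Hox-PBC match and the GATA site were separate.

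Genes with a thresholded region closest in rank to those of psa-3 and unc-62 are listed here. Ranks alone enter, so the rule returns regions that stand next to each in the lists. The only other member with a thresholded region was unc-62, at pooled rank 300 against 35 for psa-3. Genes outside the family were therefore bound to come first, and no likeness of function is read from them. The measure was the sum of absolute differences in log2 rank over the pooled list and both replicates, and it was taken over thresholded regions with a protein-coding gene in reach. The nearest to psa-3 was lys-8, a lysozyme gene, at 0.13 (ranks 34 pooled, 32 in replicate 1 and 32 in replicate 2), followed by the beta-tubulin gene tbb-2 at 0.30, R02D5.1 at 0.61 and F14E5.8 at 0.63. The lys-8 region had 3 GATA sites within 50 bp of its summit, where psa-3 had 1. For unc-62 the nearest were drd-1 at 0.21, acp-7 at 0.39, and clec-265, a C-type lectin gene, and lact-2, both at 0.48.

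**Figure D4:**
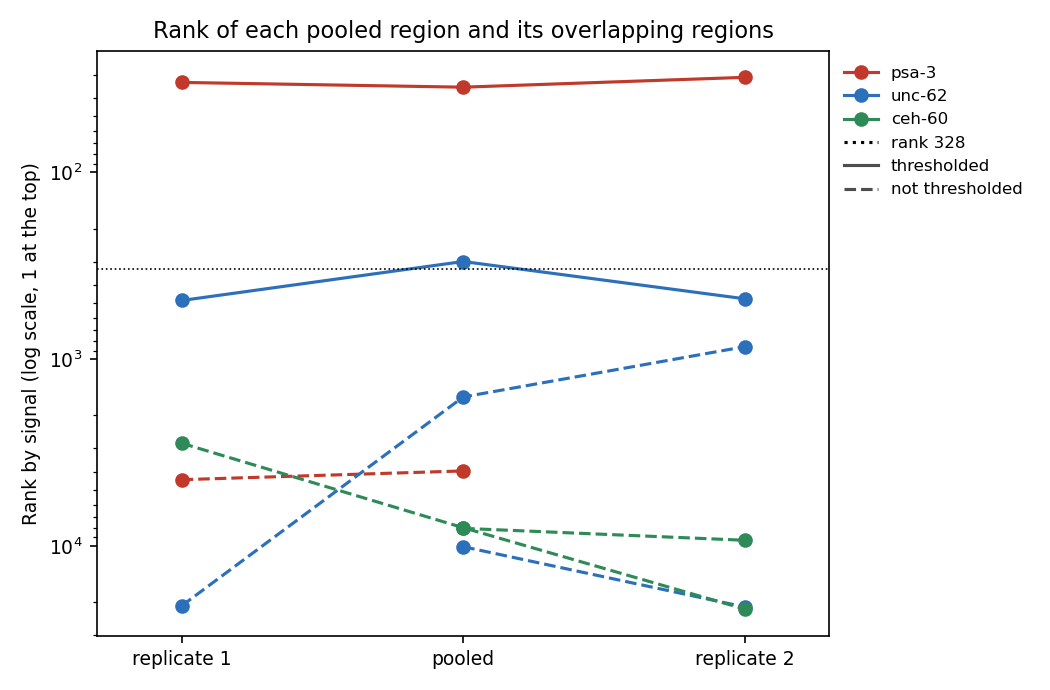
For each of the 7 pooled regions, points give the rank by signal in replicate 1, the pooled list and replicate 2 (y axis, log scale, rank 1 at the top), joined where the regions overlap, with solid lines for thresholded regions and a dotted line at rank 328. The psa-3 region stays at ranks 31 to 35, unc-62 lies at 485, 300 and 475, and the weaker regions are missing in a replicate or differ widely between them.

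The Hox genes, whose products pair with the Meis and PBC proteins, had no thresholded region. Of the 6, ceh-13, lin-39, mab-5, php-3 and nob-1 had 9 pooled regions in all and egl-5 had 0. Of all nuclear protein-coding genes, 40.2% had a pooled region and 1.71% a thresholded one, so nothing is read from the lack of a thresholded region at 6 genes. The highest 2 both lay at nob-1, whose values and those of mab-5 are given because of their ranks, a choice made after they were seen; nob-1 is the posterior Hox gene known to activate psa-3. One, at III 12082263 to 12082582, had a signal of 37.5 and pooled rank 350, shortly below the threshold, with rank 902 in replicate 1 and 337 in replicate 2. It had a GATA site within 50 bp of its summit. The next, at III 12084745 to 12085064, lay 589 bp upstream of the first TSS, with a signal of 35.1, pooled rank 421, and ranks 211 and 1284 in replicates 1 and 2, and no GATA site within 50 bp. At mab-5, which patterns the posterior body, a region of pooled rank 3186 ranked 185 in replicate 1 and had no overlapping region in replicate 2. The remaining Hox regions had signals from 14.6 to 20.7.

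Of 7 other genes tied to the T cell division, 1 had a thresholded region and 3 had a pooled one, 10 regions in all. Over all nuclear protein-coding genes these shares were 1.71% and 40.2%, so the count with a pooled region was near the background. The gene egl-27, whose product resembles a subunit of the NuRD chromatin complex, held 7 of the 10 regions in a window of 14.9 kb. As many pooled regions or more were found at 0.21% of all genes, whose median window was only 4.18 kb. Per 10 kb of window egl-27 had 4.7 pooled regions, where the nuclear chromosomes had 1.16. Such a density was not particular to egl-27, since the Hox genes nob-1 and mab-5 had 4.5 and 3.48. Beside its thresholded region of rank 279, egl-27 had regions of rank 382 and 629. The thresholded one ranked 6786 in replicate 1 and 143 in replicate 2, unlike that of psa-3, which ranked 33 and 31. The frizzled gene lin-17 had 2 pooled regions and the TCF gene pop-1 had 1, with signals up to 19.4, and tlp-1, swsn-1 (psa-1), swsn-4 (psa-4) and the Wnt gene lin-44 had 0.

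**Figure D5:**
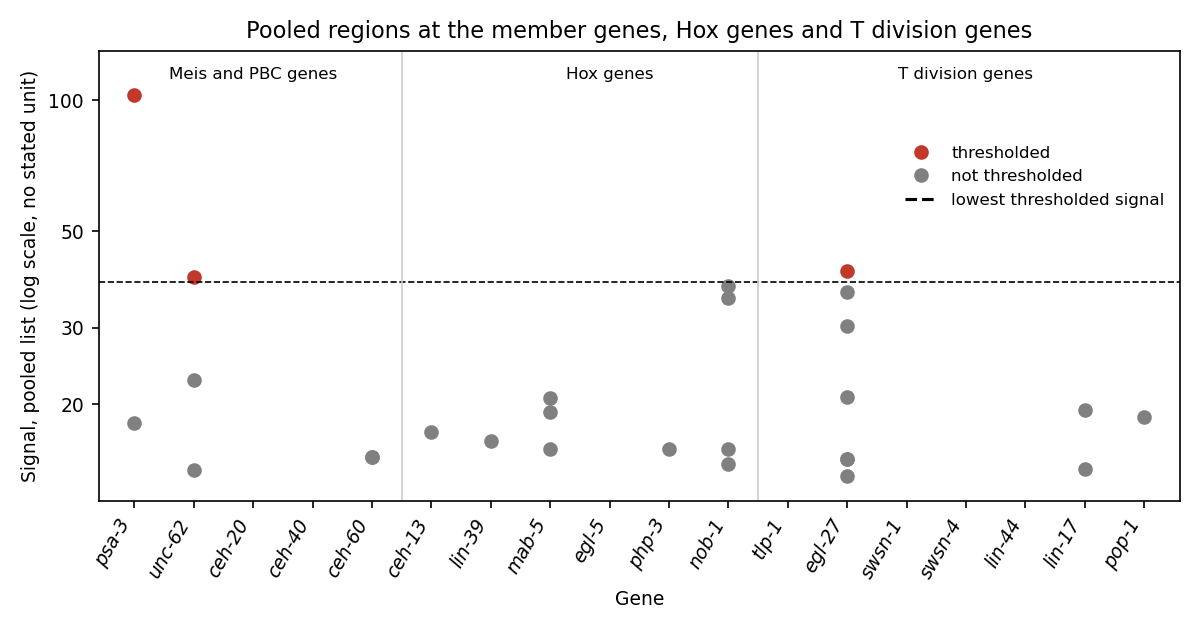
Each point is a pooled region at the gene named on the x axis, with its signal on the y axis (log scale, no stated unit), red where thresholded and grey where not; the dashed line marks the lowest thresholded signal, 38.2. The psa-3 region at 103 stands above all others shown, and the highest nob-1 region, at 37.5, lies just under the line.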

How the data were processed

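The member genes, the gene lists and the motifs were chosen with earlier results of these data known. Per the deposited text files, each list of regions was made from the alignments of 1 or both libraries and a control; the aligner, the caller and the cutoff are not given in the sources used here. The unit of the authors' signal is not stated, and its size differs between lists, so ranks were compared (rank 1 is the highest signal). The deposited −log10 q is given for the psa-3 region and for the unc-62 and nob-1 regions set beside it. Depth is unknown.

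Regions on ce11 were placed by summit and assigned to a gene when the summit lay in the gene body or within 2000 bp of an annotated TSS (Ensembl release 115). Regions of different lists were matched by an overlap of at least 1 bp, taking the nearest summit. Motifs were looked for in WBcel235 sequence, on either strand, up to 50 bp from each summit. The rules were tested on simulated regions and sequence. With 1 group there was no comparison between groups and no test; values are descriptions. Named genes were the 5 members, the 6 Hox genes, 7 other genes tied to the T cell division and, for each member with a thresholded region, the 4 genes closest to it in rank. Of the ce10 lists, the pooled one was used for 1 alternative, in which the psa-3 region was picked by chromosome, width and nearest rank. Work was done in Python 3.11.15 with numpy 2.4.6, pandas 2.3.3, scipy 1.17.1 and matplotlib 3.10.9.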

Additional observations from a re-analysis of the deposited data

How the results depend on the processing

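The 2 thresholded regions stayed 2 with windows of 1000 and 5000 bp and with any overlap in place of the summit. Only 1, that of psa-3, was left in the 164 thresholded regions of highest signal, and likewise 1 without replicate 1 or without replicate 2 (the first 328 of the remaining list). The 7 pooled regions became 6 to 10 with other windows, and 14 and 17 without replicate 1 or 2, read from the other replicate's own list, which is longer than the pooled one. The psa-3 rank was 31 and 33 without replicate 1 or 2, and 10 among nuclear regions. On ce10 the region was not found by position. It was picked as the X region of 320 bp with the rank nearest to 35. Its rank of 35 there followed from this rule and is no check, and its signal was 103 on both builds. The GATA share of 85.7% was 71.4% within 25 bp (19.2% of nuclear pooled regions) and 100% within 100 bp (47.5%). It was 50% and 41.2% without replicate 1 or 2, against 26.9% and 25% of nuclear regions, and 0% for CTTATCA. Overlap in both replicates held for 4 regions, for 3 when at least 50% of each region had to overlap and for 2, the thresholded regions, with summits within 100 bp. The cause of these changes was not tested. The unknown depth gives no error for single signals.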
